A study of Mus musculus with 4 samples.

Results

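Myoblast fusion and membrane repair were followed through 7 genes chosen by symbol: Tmem8c (myomaker, Mymk in RefSeq), Gm7325 (myomixer, Mymx in RefSeq), Adam12, Myof, Dysf, Cav3 and Nphs1. All 7 are present among the 24328 gene symbols of the expression table. The libraries were made with a SMART-Seq low-input cDNA kit from total RNA of mouse muscle stem cells (satellite cells), sorted after the animal had been perfused with the fixative paraformaldehyde. Both groups carried Pax7CreERT2/+, a Cre recombinase expressed from the satellite cell gene Pax7. The YFP group (2 libraries) carried ROSA26YFP/+ and was 7 months old. The DEK group (2 libraries) carried H11DEK-EGFP/+ and was 4.5 months old. Genotype, reporter, locus and age thus changed together and cannot be told apart. The labels do not say how many animals went into a library or whether replicates were separate animals, so the p-values measure only the spread between these libraries.

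To build a muscle fibre, committed myoblasts recognise one another, adhere and merge their membranes. Myomaker and myomixer are the muscle-specific membrane proteins that carry out the merger, and both are switched on with differentiation under myogenic regulators such as myogenin. Adult fibres later reseal tears in their membrane with calcium-binding ferlins, caveolae and annexins. Satellite cells at rest are single cells beneath the basal lamina, and fusion genes are known to come on after such cells activate and commit.

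Of the 7 genes, 3 fell in DEK: Tmem8c, Adam12 and Cav3. Values are FPKM, the authors' read abundance scaled by transcript length and library size, and were tested as log2(FPKM + 1) with limma. Genes that reached 1 FPKM in 2 or more of the libraries were tested, and a call was made for those with a Benjamini-Hochberg adjusted p under 0.05 over all 12179 genes tested. Over all tested genes 7.78% were called, 3.21% lower and 4.57% higher in DEK. Of the 7 genes 5 were tested, and Gm7325 and Nphs1 missed the filter. Cav3 passed it through its YFP values and Dysf through its DEK values, so the number called is given as a description. Both DEK values lay below both YFP values for 3 members, as they did for 26.9% of tested genes, and above them for 1 member, as for 34% of tested genes. Leaving out any 1 library left 0 to 2 of the 3 calls, and 0 without DEK replicate 1 on the same genes.

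The targeted gene, Dek, stood at 512 and 504 FPKM in the YFP libraries and at 3196 and 1639.5 FPKM in the DEK libraries, in the direction of the labels (limma log2 fold change 2.17 ± 0.31 SE, adjusted p = 0.0195). Of 10 muscle stem cell markers 0 were called, and their summed level was 3264 to 3346 FPKM in YFP and 3134 to 3807 FPKM in DEK. The 8 committed myoblast markers summed to 376 to 472 FPKM in YFP and to 148 to 165 FPKM in DEK, with 4 of 7 tested called lower. Of the 4, Chrng and Myh8 passed the filter through their YFP values. The other 2 were Myog and Actc1, and Actc1 was at 123 and 93.1 FPKM in YFP and 1.16 and 6.01 FPKM in DEK. Most of the DEK sums came from Myod1 (103 and 99.3 FPKM) and Chrna1 (39.7 and 43.2 FPKM), which were not called. Endothelial markers summed to 62.0 to 69.1 FPKM in YFP and 163 to 199 FPKM in DEK, with 10 of 12 called higher. Most of the YFP sums came from Tek, which was not called (55.9 and 56.7 FPKM in YFP, 78.8 and 66.5 FPKM in DEK). The 10 called markers were each at 0 to 0.904 FPKM in YFP and at 1.78 to 34.9 FPKM in DEK, so all 10 passed the filter through their DEK values. Macrophage markers summed to 3.97 to 21.2 FPKM in YFP and 110 to 135 FPKM in DEK. Most of the DEK sums came from Lyz2, which was not called (0.200 and 15.2 FPKM in YFP, 73.4 and 100 FPKM in DEK). The called genes were at 0 to 1.16 FPKM in YFP and 2.93 to 8.19 FPKM in DEK, with 5 of 8 tested called higher. These 5 also passed the filter through their DEK values, so the counts of called markers are given as a description. Read depth is unknown, because the table holds no counts.

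**Figure D1:**
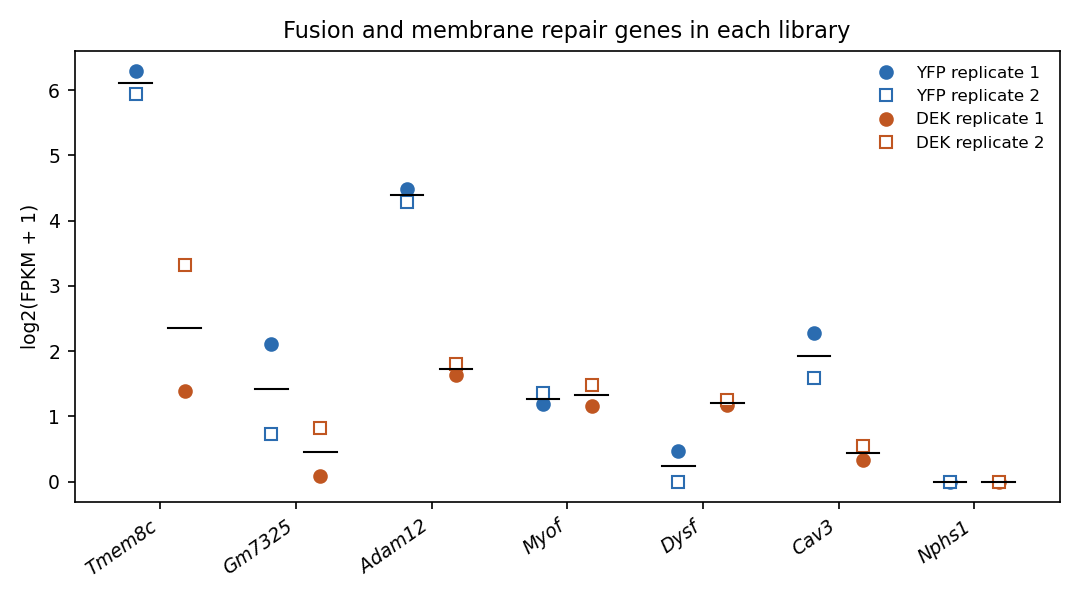
Level of each of the 7 genes in the 4 libraries as log2(FPKM + 1), with filled circles for replicate 1, open squares for replicate 2 and a bar at the mean of each group. Tmem8c, Adam12 and Cav3 sit lower in both DEK libraries, Dysf sits higher, Myof and Gm7325 overlap between groups, and Nphs1 is at 0 in every library.

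Tmem8c encodes myomaker, the membrane protein that a myoblast needs in order to fuse. It stood at 77.2 and 60.3 FPKM in YFP replicates 1 and 2, against 1.61 and 8.99 FPKM for the same numbers in DEK. Both DEK libraries were below both YFP libraries, and the DEK libraries themselves lay 5.58-fold apart while the YFP libraries lay 1.28-fold apart. Within the library, Tmem8c was above 95.5% and 94.3% of all symbols in YFP and above 54.4% and 71.6% in DEK. Its fitted log2 difference came to -3.76 ± 0.59 SE by limma (adjusted p = 0.0234), and was -2.79 without DEK replicate 1 and -4.73 without DEK replicate 2. The limma call of Tmem8c held in 12 of 19 alternatives. It was lost without YFP replicate 1 (log2 difference -3.58) and without YFP replicate 2 (-3.94), on the same genes and with the low filter applied again. Without DEK replicate 1 it was lost on the same genes only. It was also lost with no low filter (limma adjusted p = 0.0917) and with robust estimation (0.0640). In bulk libraries, fewer cells that express a gene and less of its RNA per cell cannot be told apart.

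Myog encodes myogenin, the transcription factor of terminal muscle differentiation, and Tmem8c over Myog was 1 of 3 ratios compared. Myog stood at 124 and 98.3 FPKM in the YFP libraries, against 2.44 and 13.7 FPKM in DEK. Tmem8c divided by Myog gave 0.624 and 0.613 in YFP and 0.661 and 0.657 in DEK. The ratio of the plain FPKM values thus lay between 0.613 and 0.661 in all 4 libraries, while Tmem8c alone ran from 1.61 to 77.2 FPKM. The DEK libraries lay 5.61-fold apart for Myog, close to the 5.58-fold of Tmem8c. On the scale of log2(FPKM + 1) the ratio differed between DEK and YFP by 0.21, with every DEK value above every YFP value (exact permutation test, two-sided, p = 0.333, the smallest that 2 against 2 libraries allow; 0.333 also after Benjamini-Hochberg adjustment over 3 pairs). With an added value of 0.1 in place of 1 the difference was 0.11, and with 5 it was 0.36.

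**Figure D2:**
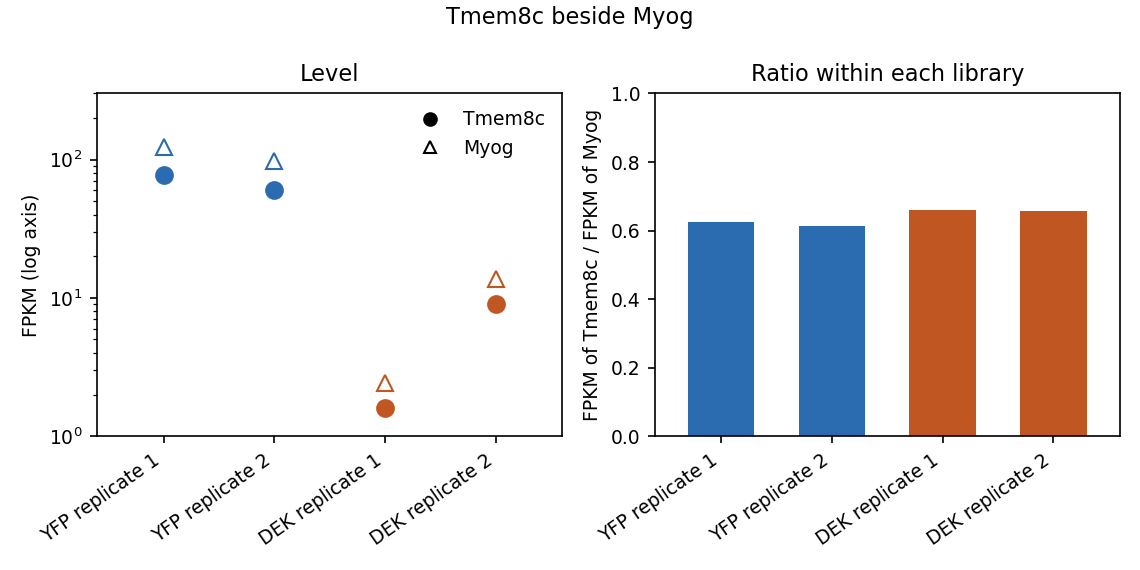
Left, FPKM on a log axis of Tmem8c (filled circles) and Myog (open triangles) in each of the 4 libraries; right, the FPKM of Tmem8c divided by that of Myog in the same library, on an axis from 0. Both genes drop together and the bars stay between 0.613 and 0.661.

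Gm7325 encodes myomixer, a micropeptide that works with myomaker to complete the merger of membranes. It was low throughout, with 3.33 and 0.652 FPKM in YFP and 0.0587 and 0.769 FPKM in DEK. The groups overlapped, since DEK replicate 2 was above YFP replicate 2. Without the low filter its fitted log2 difference came to -0.97 ± 0.57 SE by limma (adjusted p = 0.386). The difference in mean log2(FPKM + 1) was -0.27 without YFP replicate 1, -1.66 without YFP replicate 2 and -0.60 without DEK replicate 1. Tmem8c divided by Gm7325 in plain FPKM was 23.2 and 92.4 in YFP and 27.4 and 11.7 in DEK, and these ranges overlap too. On the log2(FPKM + 1) scale the ratio in DEK minus that in YFP was -2.79, without overlap (exact permutation test, two-sided, p = 0.333, the smallest possible). With an added value of 0.1 it was -2.002. Whether the fusogen pair changed in unequal measure was therefore not resolved by these 4 libraries.

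Adam12 encodes meltrin alpha, a membrane-anchored metalloprotease and disintegrin of fusing and regenerating muscle. It stood at 21.4 and 18.6 FPKM in the YFP libraries, against 2.11 and 2.49 FPKM in DEK. The replicates lay 1.15-fold and 1.18-fold apart, and the mean was 8.70-fold lower in DEK. Its fitted log2 difference came to -2.67 ± 0.19 SE by limma (adjusted p = 0.00353). Among 19 alternatives the call was lost in 1, without DEK replicate 1 on the same genes (log2 difference -2.59). That fit left 1 DEK library, and calls were lost there over all tested genes, not in Adam12 alone. The call of Adam12 held when the low filter was applied to the 3 remaining libraries. Its meltrin relatives, named outside the rule with their values known, did not show such a gap. Adam9 was at 19.02 and 14.4 FPKM in YFP and 14.7 and 13.4 FPKM in DEK (log2 fold change -0.22, limma adjusted p = 0.483), and Adam19 at 5.99 and 3.88 against 4.44 and 3.59 FPKM (-0.22, adjusted p = 0.584). Both overlapped between groups, and the difference between Adam12 and these relatives was not itself tested. In YFP Adam12 and Adam9 stood at like levels per length, and in DEK Adam12 was the lower in both libraries.

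Cav3 encodes caveolin-3, the caveolin of striated muscle, which forms caveolae in the fibre membrane and is known to bind dysferlin. It stood at 3.85 and 2.01 FPKM in the YFP libraries, against 0.266 and 0.464 FPKM in DEK. No DEK value reached a YFP value, and the mean was 8.02-fold lower in DEK. Its fitted log2 difference came to -1.49 ± 0.29 SE by limma (adjusted p = 0.0386). The call was lost without each library on the same genes (log2 fold change -1.83 to -1.14). Filtering again did not restore it. Cav3 then missed the filter without either YFP library and was not called without either DEK library. The call was also lost under the replicate block (limma adjusted p = 0.0564), with an added value of 5 (0.0527, log2 fold change -0.55) and with no low filter (0.0963). With an added value of 0.1 the log2 fold change was -2.67.

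In the mouse annotation (GENCODE M21 on GRCm38, another build than the authors' mm9, used here for gene order only) the next protein-coding gene downstream of Cav3 is Oxtr, on the opposite strand, so that both genes point toward each other. Oxtr, the oxytocin receptor gene and named after its values were seen, was at 8.10 and 6.93 FPKM in the YFP libraries, against 0.136 and 0.0291 FPKM in DEK (limma log2 fold change -2.97 ± 0.21 SE, adjusted p = 0.00353). Like Cav3, Oxtr passed the filter through its YFP values, so its call is given as a description. Both neighbours were lower in both DEK libraries. How the reads were assigned by strand is not given in the sources used here, and the part of reads from one gene in the value of the other was not tested. Markers of mature myofibres, which express Cav3, summed to 119 to 134 FPKM in YFP and 223 to 262 FPKM in DEK. Without Actn3, a choice made after seeing the data, the sums were 91.6 to 104 FPKM in YFP and 65.3 to 114 FPKM in DEK and overlapped. Of 13 such markers 7 were tested, with 1 called higher (Actn3), 0 lower and a median log2 fold change of -0.28. This list was split. Without a call or overlap, Ckm, Tnnt3, Myh4, Mylpf and Pvalb were higher in DEK, and Acta1, Atp2a1, Ryr1, Mb and Myh1 lower. Tnnt3 was at 5.48 and 5.27 FPKM in YFP and 28.9 and 8.55 FPKM in DEK, and Acta1 at 47.4 and 39.5 against 32.0 and 13.1 FPKM. Pericyte and smooth muscle markers summed to 318 to 338 FPKM in YFP and 280 to 365 FPKM in DEK. Of these 2 of 9 were called higher (Rgs5 and Myh11) and 0 lower, with a median log2 fold change of 0.45. Myh11 passed the filter through its DEK values. The list went both ways. Without a call or overlap, Acta2, Kcnj8 and Cspg4 were lower in DEK, and Pdgfrb, Tagln and Cnn1 higher. Acta2 was at 193 and 166 FPKM in YFP and 74.2 and 111 FPKM in DEK, and Tagln at 101 and 85.9 against 123 and 182 FPKM. The part of myofibres, pericytes and smooth muscle cells in the value of Cav3 was not tested.

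RefSeq promoter windows on GRCm38.p6 were found for 4 of the 7 genes (Cav3, Dysf, Myof and Nphs1); Tmem8c, Gm7325 and Adam12 have no entry in the table. Cav3 and Dysf are shown because they are the 2 windowed genes whose groups did not overlap, one lower and one higher in DEK. Each sequence is the 250 bases before the start site, with every CANNTG in capitals. CANNTG is the E-box, the letters that myogenic factors such as myogenin bind as dimers, and it reads the same on both strands.
Cav3, chr6:112459255-112459504, plus strand: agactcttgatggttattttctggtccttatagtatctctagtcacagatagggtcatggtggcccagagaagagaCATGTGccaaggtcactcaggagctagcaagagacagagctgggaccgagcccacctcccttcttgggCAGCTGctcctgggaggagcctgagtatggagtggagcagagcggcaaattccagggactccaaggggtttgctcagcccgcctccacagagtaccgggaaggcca
Dysf, first of 2 start sites, chr6:84008348-84008597, plus strand: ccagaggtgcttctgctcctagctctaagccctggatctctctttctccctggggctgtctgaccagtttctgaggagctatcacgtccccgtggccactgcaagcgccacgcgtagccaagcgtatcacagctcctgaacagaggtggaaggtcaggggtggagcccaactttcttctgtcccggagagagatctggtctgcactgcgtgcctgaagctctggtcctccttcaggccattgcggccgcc

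The Cav3 window holds 2 E-boxes, of which 1 is CAGCTG, and the Dysf window holds 0. The other Dysf start site and the windows of Myof and Nphs1 also hold 0. Among all 32851 windows of 250 bases, 66.2% hold at least 1 CANNTG, 31.8% hold 2 or more and 13.0% hold CAGCTG. The count in Cav3 is therefore a common one. A match is a description of letters, not evidence of binding, and the absence of a match says only that these letters are not in this window.

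Myof and Dysf encode the ferlins myoferlin and dysferlin, membrane proteins with repeated calcium-binding C2 domains. Myoferlin is known from the fusion of myoblasts, and dysferlin from the resealing of adult fibres, where its loss causes muscular dystrophy. Myof was at 1.27 and 1.57 FPKM in the YFP libraries, against 1.24 and 1.80 FPKM in DEK. The groups overlapped, with a log2 fold change of 0.05 (SE 0.23, limma adjusted p = 0.902), whose sign turned with the library left out or the scaling (-0.11 to 0.21 over the alternatives run). Dysf was at 0.384 FPKM in YFP replicate 1, listed at 0 in YFP replicate 2, and at 1.25 and 1.37 FPKM in DEK. Both DEK libraries were above both YFP libraries, yet the difference was not called (limma log2 fold change 0.97 ± 0.25 SE, adjusted p = 0.0700). The fitted change of Dysf depends on the added value, being 2.68 with 0.1 and 0.28 with 5, and 1 alternative called it, a threshold of 0.1 on the adjusted p.

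Dysferlin is also made by monocytes, macrophages and endothelial cells, and the summed markers of both cell types given above were higher in DEK. The macrophage markers Csf1r and Tyrobp, which were at 0 to 0.0977 FPKM in YFP, stood at 4.13 to 5.997 FPKM in DEK. The part of such cells in the value of Dysf was not tested. Dysf divided by Myof in plain FPKM was 0.301 and 0 in YFP and 1.01 and 0.763 in DEK. On the log2(FPKM + 1) scale the ratio was higher in DEK by 0.92 (exact permutation test, two-sided, p = 0.333, the smallest possible). Of the other ferlins in the table, Fer1l5 was at 0.700 and 1.88 FPKM in YFP and 2.05 and 1.76 FPKM in DEK (log2 fold change 0.39, limma adjusted p = 0.428). Otof and Fer1l4 were under 0.03 FPKM in every library.

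Nphs1 encodes nephrin, an adhesion protein of the immunoglobulin superfamily best known from the filtration slit of kidney podocytes and also studied in myoblast fusion. It was listed at 0 in all 4 libraries, as was its antisense gene Nphs1os. The neighbouring gene Kirrel2, a nephrin relative, was at 0 in all 4 as well. Other Kirrel genes were expressed. Kirrel was at 25.7 and 26.04 FPKM in YFP and 17.7 and 21.7 FPKM in DEK, without overlap and without a call (limma log2 fold change -0.38 ± 0.16 SE, adjusted p = 0.184). Kirrel3, named by the rule and known for adhesion between neurons, was at 52.2 and 55.8 FPKM in the YFP libraries, against 23.6 and 23.96 FPKM in DEK (limma log2 fold change -1.15 ± 0.14 SE, adjusted p = 0.0120). Kirrel3 therefore fell, and the replicates of each group lay close together.

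In YFP the order of levels per length was Tmem8c, Adam12, Cav3, Gm7325, Myof, Dysf and Nphs1. Cav3 and Gm7325 overlapped in that order, as did Gm7325 and Myof, and Dysf and Nphs1 were both listed at 0 in YFP replicate 2. The other neighbours did not overlap. In DEK the order by mean was Tmem8c, Adam12, Myof, Dysf, Gm7325, Cav3 and Nphs1. There Tmem8c overlapped Adam12 and Myof, Myof overlapped Dysf, and Gm7325 overlapped Cav3. In YFP Tmem8c was the highest member in both libraries, and in DEK replicate 1 it was below Adam12.

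**Figure D3:**
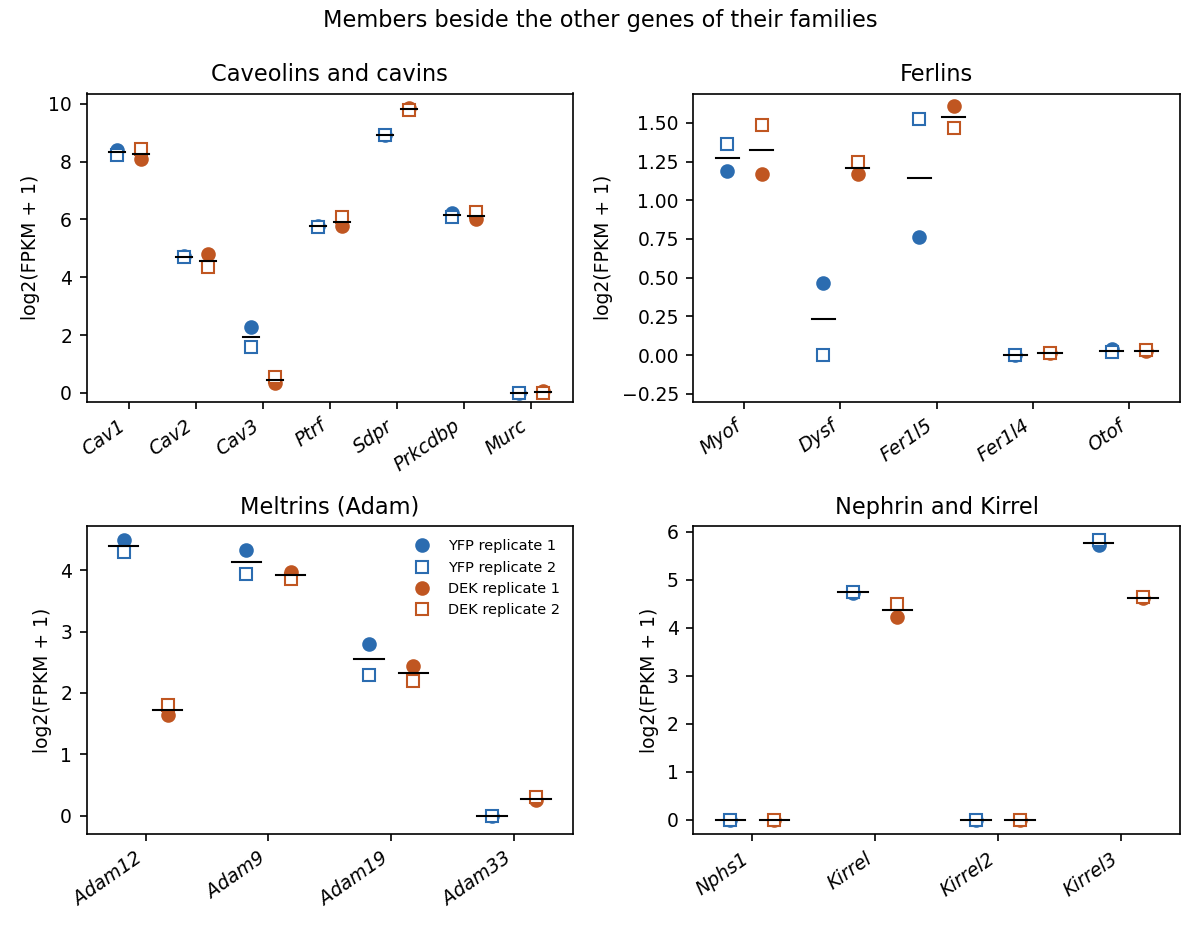
Members beside other genes of their families as log2(FPKM + 1) in each library, with filled circles for replicate 1, open squares for replicate 2 and bars at group means; the panels hold caveolins and cavins, ferlins, meltrins, and nephrin with the Kirrel genes. Cav3 and Adam12 are lower in DEK while Cav1, Cav2, Adam9 and Adam19 overlap between groups, and Kirrel3 and Sdpr each show a gap between groups.

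Caveolin-3 belongs to a family whose other members are broadly expressed. Cav1 was at 337 and 299 FPKM in YFP and 268 and 345 FPKM in DEK, and Cav2 at 25.5 and 25.1 against 26.6 and 19.5 FPKM. Both overlapped between the groups (log2 fold changes -0.06 and -0.14, limma adjusted p = 0.843 and 0.656; the signs turned without some libraries). On the same per-length scale Cav1 was the highest caveolin in every library. The cavin coat gene Ptrf, cavin-1, was at 53.3 and 52.6 FPKM in YFP and 53.05 and 66.8 FPKM in DEK (log2 fold change 0.17, adjusted p = 0.532), and the muscle cavin Murc did not exceed 0.041 FPKM. The coat gene Sdpr, cavin-2, rose from 483 and 480 FPKM in YFP to 927 and 878 FPKM in DEK (limma log2 fold change 0.91 ± 0.14 SE, adjusted p = 0.0226). Sdpr is also abundant in endothelial cells, whose summed markers were higher in DEK, and their part in it was not tested.

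A wider set of 50 other genes of myoblast adhesion and fusion, all present in the table, was read from the same fit. Of these 42 were tested, 2 fell and 1 rose, which is 7.14% called against 7.78% of all tested genes. At an unadjusted p under 0.05 limma gave 8 lower and 3 higher, where 12.2% of all tested genes were lower and 16.9% higher. The median log2 fold change was 0.02 in the set and 0.05 over all tested genes, and 30 of the 42 lay within 0.5 of 0. The set's share of adjusted calls in either direction was thus near the background. Without overlap between groups, 15 of the 42 were lower in DEK and 9 higher, where 26.9% of all tested genes were lower and 34% higher. By these counts and the unadjusted ones lower genes outnumbered higher ones in the set, the reverse of all tested genes on the deposited scale. That background depended on the scaling. Lower genes were 41.2% of all adjusted calls on the deposited scale and 57.5% with the ribosomal RNA precursor Rn45s removed. These counts were not taken under other scalings. The list was not tested as a set. Beside Kirrel3, the gene that fell was Ptgfrn, an immunoglobulin protein that partners tetraspanins, at 48.0 and 46.02 FPKM in YFP and 23.3 and 24.8 FPKM in DEK (limma log2 fold change -0.94 ± 0.14 SE, adjusted p = 0.0202). The gene that rose was Cdon, a cell surface co-receptor that signals from cadherin contacts to myogenic differentiation, at 19.8 and 20.2 FPKM in YFP and 41.6 and 44.3 FPKM in DEK (limma log2 fold change 1.06 ± 0.14 SE, adjusted p = 0.0151). Leaving out any 1 library, on the same genes, ended each of these 3 calls (adjusted p = 0.0714 to 0.107 for Kirrel3, 0.0819 to 0.134 for Ptgfrn and 0.0855 to 0.115 for Cdon).

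The tetraspanins Cd9 and Cd81, which take part in myoblast fusion, and the GTPase Rac1, which drives the actin remodelling of fusion, were the most abundant of the set. Cd9 was at 678 and 684 FPKM in YFP and 412 and 508 FPKM in DEK (limma log2 fold change -0.57 ± 0.16 SE, adjusted p = 0.0828), without overlap and without a call. Cd81 (log2 fold change 0.07, adjusted p = 0.803) overlapped between groups, and its sign turned when the scaling or the libraries were changed. Rac1 was at 455 and 451 FPKM in YFP and 346 and 410 FPKM in DEK (-0.26, adjusted p = 0.292).

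A set of 44 other membrane repair genes had 42 in the table and 35 tested, of which 1 fell and 2 rose. This is 8.57% called against 7.78% of all tested genes, with a median log2 fold change of -0.06, and at an unadjusted p under 0.05 limma gave 5 lower and 5 higher (12.2% and 16.9% of all tested genes). S100a4, a calcium-binding protein of motile cells, was at 148 and 115 FPKM in YFP and fell to 25.6 and 53.9 FPKM in DEK (limma log2 fold change -1.79 ± 0.34 SE, adjusted p = 0.0376). Anxa5, an annexin that coats torn membrane, rose from 126 and 116 FPKM to 190 and 195 FPKM (limma log2 fold change 0.67 ± 0.13 SE, adjusted p = 0.0395; 0.0569 with the ribosomal RNA precursor Rn45s removed). The other gene that rose was Sdpr. Leaving out any 1 library, on the same genes, ended the calls of Sdpr (adjusted p = 0.0666 to 0.185) and Anxa5 (0.113 to 0.221), and that of S100a4 ended without YFP replicate 1, YFP replicate 2 or DEK replicate 1 (0.150, 0.162 and 0.136). The most abundant repair genes besides these were Anxa6, Anxa2 and S100a10, with log2 fold changes of 0.35, 0.23 and -0.76 that were not called (limma adjusted p = 0.243, 0.432 and 0.0988). Trim72, the muscle repair protein also called MG53, did not exceed 0.0342 FPKM.

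**Figure D4:**
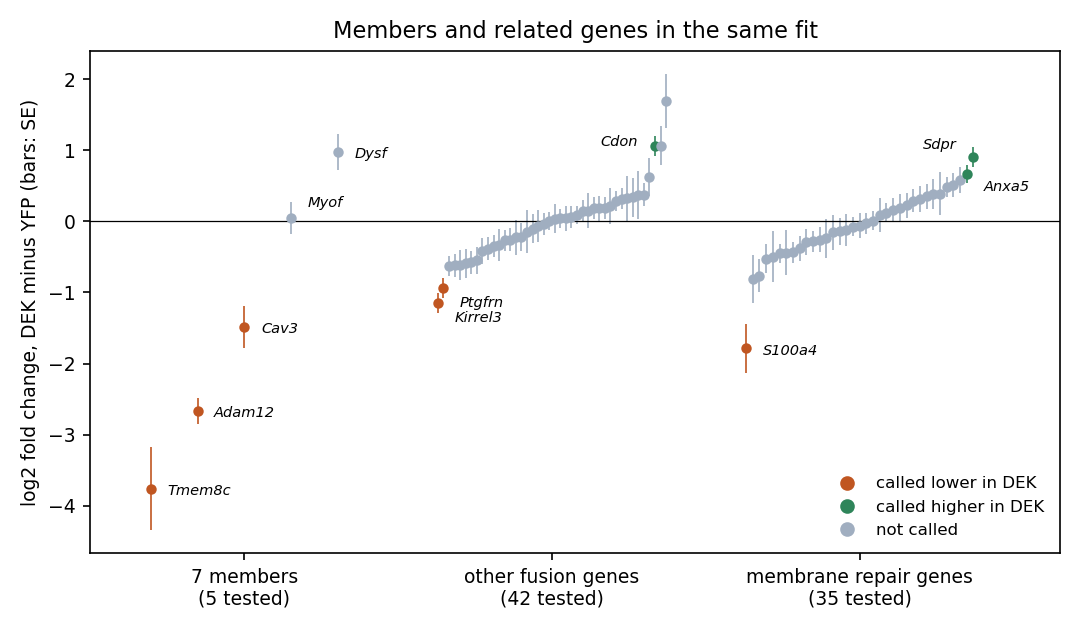
Log2 fold change of DEK minus YFP with its standard error for the 5 tested members, 42 other fusion genes and 35 membrane repair genes, each set sorted by value and coloured by the limma call. Tmem8c, Adam12 and Cav3 lie at -3.76, -2.67 and -1.49, while 30 of the 42 other fusion genes lie within 0.5 of 0.

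The tested genes with the most similar profile to each fallen member were taken by the distance between log2(FPKM + 1) values, each centred on its own mean, over the 4 libraries. Predicted gene models, with Gm or Rik names, were skipped and not ranked. With 4 libraries in 2 groups this measure mostly reads the size of the group difference and the gap between the DEK replicates, and it is a description. For Tmem8c the nearest of 11511 genes was Myog (distance 0.24), followed by Aspm (0.59), Cdkn1c (0.75) and Hist1h2ao (0.99). All of these shared the pattern of a lower DEK replicate 1 than DEK replicate 2. The DEK values were 0.215 and 4.30 FPKM for Aspm, 20.01 and 90.7 FPKM for Cdkn1c and 0.307 and 0.908 FPKM for Hist1h2ao. For Adam12 the nearest were Klk1 (0.08), Chrnd (0.16), Tmod1 (0.28) and Arg2 (0.34), whose DEK replicates, like those of Adam12, lay near each other on this scale. For Cav3 they were Klk1b24 (0.17), Chrna4 (0.17), Rassf4 (0.24) and Pcp4 (0.25), all of them under 10 FPKM in each library. Hist1h2ao, Klk1 and Klk1b24 belong to families of near-identical genes, and their values are uncertain.

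Among regulators given for context, Myod1 was at 153 and 128 FPKM in YFP and 103 and 99.3 FPKM in DEK (log2 fold change -0.46, limma adjusted p = 0.108), and Myf5 at 312 and 306 against 219.6 and 267 FPKM (-0.35, adjusted p = 0.190). Pax7 was at 105.5 and 93.9 FPKM in YFP and 119 and 184 FPKM in DEK (0.57, adjusted p = 0.159). Each kept its groups apart without a call, and these differences were far smaller in size than the -3.97 of Myog (SE 0.63, adjusted p = 0.0242). DEK replicate 1, the library with the lower Tmem8c and Myog, was also the one with the higher Dek. It differed from DEK replicate 2 in other ways too. Its Pax7 was lower (119 against 184 FPKM), its summed endothelial markers were higher (199 against 163 FPKM) and its macrophage markers lower (110 against 135 FPKM). With 2 libraries none of these orders has a test.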

How the data were processed

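Total RNA of sorted, fixed muscle stem cells was measured in 2 libraries per group, with cDNA from a SMART-Seq kit, per the labels. The tools named for the deposited values, per the submitters' processing notes, are STAR (2.5.3a), StringTie (1.3.3) and R (3.4.1), with mm9 as build; settings and annotation are not given in the sources used here. Each gene symbol has 1 deposited FPKM per library, made by the authors; the unit was inferred from the values, and TPM cannot be told apart from it with certainty. Column totals were 541183 to 545123. The ribosomal precursor Rn45s held 11.8 and 15.7% of the total in YFP replicates 1 and 2, against 5.15 and 5.55% in DEK. Its share thus differed between the groups. Without counts, depth and counting error are unknown.

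FPKM plus 1 was taken to log2 and fitted with limma (3.58.1, R 4.3.3), with a variance trend and no covariates, on the 12179 genes that reached 1 FPKM in 2 or more of the libraries. The fit was run on simulated data with the same noise for every gene and planted changes of known size. This checks the code and says nothing on the calls made here. Members and lists were chosen with earlier results of these data known. A rule named the members, Dek, Myog, Myod1, Myf5 and Pax7, up to 5 called genes per direction and the 3 most abundant genes of each list, and 4 similar profiles per called member. Family relatives, Oxtr and single markers were named outside it, after their values were seen. Marker lists covered muscle stem cells, committed myoblasts, myofibres, endothelial cells, macrophages, pericytes and fibro-adipogenic progenitors. The last summed to 722 to 850 FPKM in YFP and 953 to 1018 FPKM in DEK, with 5 of 9 called higher and 1 lower. Of the 5, Mfap5 and Pi16 passed the filter through their DEK values. The 19 alternatives changed the libraries, filter, added value, scaling, variance model, threshold or block.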

Additional observations from a re-analysis of the deposited data

How the results depend on the processing

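With 1 library left out on the same genes, 0 to 45 genes were lower and 0 to 139 higher (391 and 557 with all 4), 0 to 2 members were lower, 0 other fusion genes were lower and 0 higher, and 0 to 1 repair genes were lower and 0 higher. Filtering again on the 3 remaining libraries gave 36 lower and 132 higher without YFP replicate 1, 16 and 67 without YFP replicate 2, 125 and 177 without DEK replicate 1, and 409 and 371 without DEK replicate 2. There 1 to 2 members were lower, 0 to 3 other fusion genes lower and 0 to 2 higher, and 0 to 3 repair genes lower and 0 to 1 higher. In the labels same-numbered samples share only a number. The correlation of their deviations (0.06 over 12179 genes) cannot tell whether they shared a preparation. The replicate block gave 235 genes lower, 2 other fusion genes higher, and 0 repair genes lower and 0 higher. Under it Tmem8c and Adam12 stayed called (limma adjusted p = 0.0274 and 0.00927) and Cav3 did not (0.0564). With no low filter 77 genes were lower and 216 higher, 1 member was lower, and 0 repair genes were called in either direction. A threshold of 0.1 gave 859 lower and 1237 higher, 1 member higher (Dysf), 5 other fusion genes lower and 3 higher, and 3 repair genes lower. Other fusion genes called higher numbered 2 at a minimum of 5 FPKM and 2 with robust estimation, and those called lower numbered 4 with TMM factors and 4 with quantile scaling. Repair genes numbered 2 lower and 1 higher once Rn45s was taken out, and 1 higher with no variance trend. Lower calls made up 41.2% of calls, 51.4% with quantile scaling and 57.5% once Rn45s was taken out, where the median of all tested genes went from 0.05 to -0.07 on the log2 scale. The added value moved the ratios: Tmem8c over Gm7325 to -2.002 with 0.1, Dysf over Myof to 2.60 with 0.1 and 0.26 with 5, and Tmem8c over Myog to 0.11 with 0.1 and 0.36 with 5. Signs turned for 5 genes with small differences. Leaving out 1 library gave -0.108 to 0.21 for Myof (-0.0375 without YFP replicate 1), -0.0237 to 0.155 for Cd81 (-0.0160 without YFP replicate 2), -0.242 to 0.12 for Cav1 (0.0249 without YFP replicate 1), -0.484 to 0.0341 for Adam19 and -0.357 to 0.0743 for Cav2. Quantile scaling gave -0.0330 for Myof and -0.135 for Cd81, and taking out Rn45s gave -0.0335 and -0.0759. Beyond these constructions the cause was not tested. Count-based tests were not run because the table holds no counts, and what depth limits is unknown.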
